A study of Arabidopsis thaliana with 6 samples.

Results

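The genes described here are the nuclear genes for subunits of respiratory complexes II, III, IV and V, as the annotation in the deposited table of Arabidopsis thaliana gene expression names them. A gene was taken where its Cellular Component terms named respiratory chain complex II, III or IV or the mitochondrial proton-transporting ATP synthase, and where it lay on a nuclear chromosome. The terms matched 57 genes of the 24193 in the table, of which 52 were nuclear, 4 were mitochondrial and 1 was a gene model added by the authors. A pair of nuclear genes, ATPB-1 and ATPB-2 for the F1 beta subunit, also held a complex I term and were dropped, which left 50 members. They divide into 13 genes of complex II, 17 of complex III, 1 of complex IV and 19 of complex V. OSCP, ATP6KD-1 and ATP6KD-2 held terms of both complex III and complex V and are counted under complex V.

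RNA was measured in 6 libraries of whole seedlings kept in darkness for 6 days, 3 of lon1-1 and 3 of wt. The lon1-1 line carries a mutation in LON1, whose product degrades proteins in the mitochondrial matrix at the cost of ATP, and wt is Col-0. Both groups were grown vertically on Petri dishes, the labels give no other treatment, and the design text calls the 3 samples of each group independent biological replicates. The labels do not say what kind of mutation lon1-1 is, how many plants went into a sample, or whether the line is in the Col-0 background. The genotype field reads Col-0 for every library, so the groups come from the titles. LON1 (AT5G26860) was lower under the lon1-1 titles: it had 2.67, 2.61 and 2.79 FPKM in the lon1-1 libraries, against 4.69, 4.70 and 4.69 FPKM in the wt libraries, a log2 fold change of -0.63 (SE 0.055, limma adjusted p = 3.58e-06). By the same test 32.3% of all tested genes were lower. With the kind of mutation not given, the LON1 values cannot check the titles.

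Respiratory electron transport passes electrons from succinate and other donors to oxygen. Complex II, succinate dehydrogenase, feeds electrons into the ubiquinone pool, complex III passes them from ubiquinol to cytochrome c, and complex IV hands them to oxygen. Complex V, the ATP synthase, uses the resulting proton gradient to make ATP in its F1 head, driven by the rotor of its membrane-embedded Fo part. In plants most subunits are nuclear genes, often in small families of paralogs, while a few core subunits of complexes III to V are made inside the mitochondrion. Seedlings in the dark cannot photosynthesise and live on respiration of their seed reserves.

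Expression was given as FPKM, fragments scaled to transcript length and to the mapped fragments of the library, so levels of different genes can be set side by side. Depth estimated from the steps between low values was 32750000 to 35250000 fragments a library, at which 1 FPKM in a kilobase of counted length stands for 32.75 to 35.25 fragments. All 50 members were above 0 in every library. Of these, 48 reached 1 FPKM in at least 3 libraries and were tested with limma on log2(FPKM + 1), together with every other such gene, 18308 in all. Log2 fold changes are lon1-1 minus wt on that scale, which shrinks the change of genes at low FPKM, and a gene is said to have risen or fallen where its adjusted p was below 0.05. The size of a rise or fall is a log2 fold change throughout. Means are FPKM ± SD over 3 libraries (n = 3). In whole seedlings, more cells of one type and more RNA per cell cannot be told apart.

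Transcripts of most nuclear subunits of complexes II to V were more abundant in lon1-1. Of the 48 tested members 42 rose, 4 fell and 2 were not called, where 77.0% of all tested genes were called, 44.7% as higher and 32.3% as lower. The median log2 fold change of the tested members was 0.50, beside 0.08 for all tested genes. It was 0.35 over 11 genes of complex II, 0.46 over 17 of complex III and 0.65 over 19 of complex V. Most changes were small on the tested scale: 11 members rose and 1 fell when limma's treat asked for more than a 1.5-fold change of FPKM + 1, where 8.33% and 7.69% of all tested genes did. Over all 50 members, the 3 lon1-1 libraries lay above the 3 wt libraries for 43 and below them for 4, and the groups overlapped for 3, where 79.1% of all tested genes lay apart, 45.7% above and 33.4% below.

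**Figure D1:**
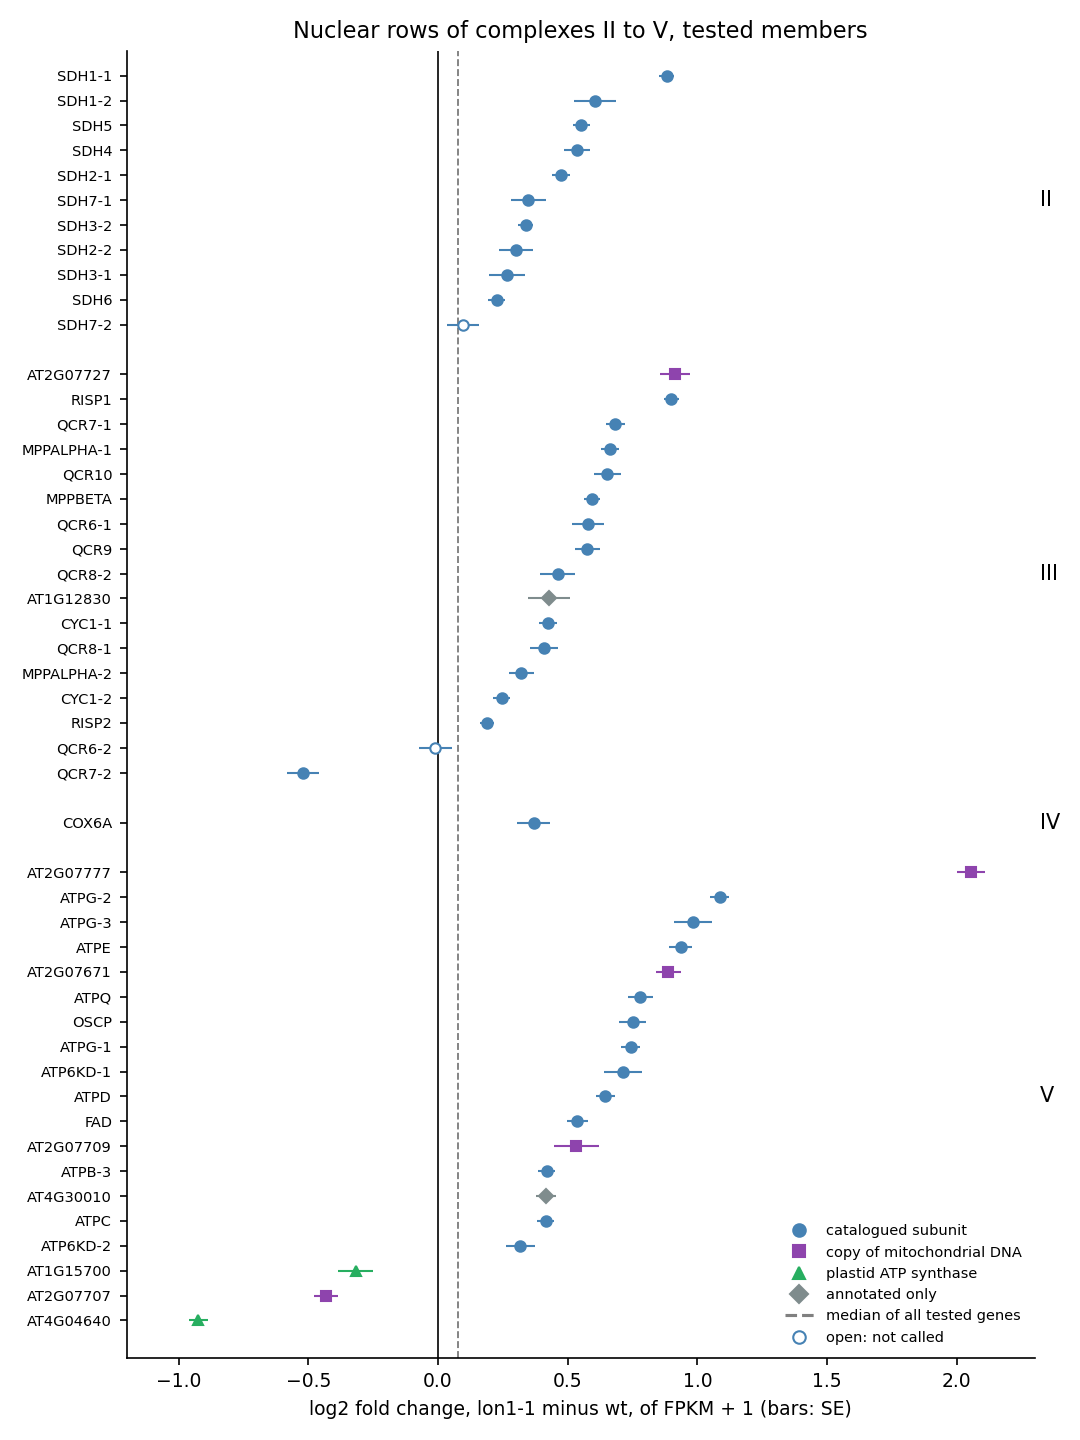
Log2 fold change (lon1-1 minus wt, of FPKM + 1) of each of the 48 tested members, by complex from top to bottom, with bars for the SE, open symbols for genes not called and a dashed line at the median of all tested genes, 0.08. Most points lie right of that line, and AT2G07777, a copy of mitochondrial DNA, lies farthest right at 2.06.

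The members are not all subunits of these complexes. By a catalogue of Arabidopsis subunits written by locus, 40 are. Another 5 are stretches of chromosome 2 that copy mitochondrial DNA, so their reads may come from the mitochondrial genes. A pair, AT4G04640 and AT1G15700, code for the gamma subunit of the plastid ATP synthase. The last 3 carry the term but are not in the catalogue, which may be incomplete. AT1G12830 is described in the table as a nucleolin, AT4G30010 as an ATP-dependent RNA helicase, and AT4G32212 is a transcribed pseudogene. Of the 40 catalogued subunits 39 were tested, and 36 rose, 1 fell and 2 were not called, with a median log2 fold change of 0.53. Of the 4 members that fell, 3 were plastid subunits or a copy of mitochondrial DNA, so that QCR7-2 was the only catalogued subunit to fall. Those last 3 included 2 tested genes, AT1G12830 at 0.43 and AT4G30010 at 0.42, both of which rose. AT4G32212 had 0.63, 0.72 and 0.66 FPKM in lon1-1 and 0.32, 0.36 and 0.25 FPKM in wt.

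The nearest set was the nuclear genes with a complex I term. Of its 57 tested genes 48 were higher and 3 lower, with a median log2 fold change of 0.36. Both ATPB-1 and ATPB-2 of complex V are in that set, and both rose. Nuclear genes annotated to mitochondria, without the members and without genes that held a complex I term, had 710 of 1232 higher, 266 lower and a median of 0.23. Adding the members and complex I genes that carry that annotation gave 785 higher and 270 lower of 1319. The median was then 0.25. Copies of mitochondrial DNA were left out of both counts. Among genes for 6 abundant or defining proteins of mitochondria outside these complexes, 5 rose. Those for the outer membrane channels VDAC1, VDAC2 and VDAC3 rose by 0.42, 0.85 and 1.13 on the log2 scale. Those for the ADP/ATP carriers AAC1 and AAC2 rose by 0.65 and 0.35. The pyruvate carrier subunit MPC1 fell by 0.28 on the log2 scale. Marker lists of other seedling tissues moved as well: summed FPKM of 6 root markers was 100.2 to 106.7 in lon1-1 and 63.0 to 68.3 in wt. The list did not go one way: RHD6, COBL9, EXPA7 and PRP3 rose, SHR fell by 0.46 and SCR was not called. PRP3 gave the largest part of the sum, with 52.3 ± 3.4 FPKM in lon1-1 and 27.9 ± 1.5 FPKM in wt. For 6 shoot and cotyledon markers it was 527.2 to 547.5 in lon1-1 and 2779.9 to 2887.0 in wt, with 5 lower and SPCH too low to test, and most of the sum came from CAB1 and RBCS1A. Summed markers of dividing cells were 16.1 to 19.0 in lon1-1 and 26.0 to 30.0 in wt, with 2 of 3 lower, and 3 dark growth genes summed to 133.6 to 135.3 in lon1-1 and 205.1 to 213.1 in wt. Of those 3, PORA fell, PIF3 rose and HLS1 was not called, so the lower sum came from PORA. No marker was at 0 in all libraries, and the part of these shifts in the members' values was not tested.

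Promoter sequence was set beside these values because genes for respiratory subunits of Arabidopsis are known to share short promoter motifs called site II elements. The window ran from 250 bases before to 50 bases after the annotated start of each gene in TAIR10.1, 300 bases in all, and was searched on both strands for TGGGCC or TGGGCT, and for AAACCCT, the telo box, with overlapping matches counted separately. A site II match was found in 20 of the 40 catalogued subunits (50%), beside 5535 of 23881 nuclear protein-coding genes (23.2%). It was in 3 of 12 promoters of complex II, 9 of 15 of complex III, 7 of 12 of complex V and in that of COX6A. Of 60 promoters of nuclear genes with a complex I term, 65.0% held one. The telo box was in 2 of the 40 (5.0%), beside 9.7% of all promoters. The median log2 fold change was 0.58 over 19 tested subunits with a site II match and 0.50 over 20 without. Within complexes the order was the other way in complex III (0.46 with and 0.49 without) and complex V (0.71 with and 0.74 without). The same held in the complex IV list (0.27 with and 0.41 without) and among assembly factors (0.56 with and 0.83 without). In complex II both were 0.35, but only SDH1-2 (0.60) and SDH7-2 (0.10) of the tested genes held a match. In larger sets genes with a match had the higher median. It was 0.17 over 4673 tested nuclear protein-coding genes with a match and 0.04 over 13363 without. Among nuclear genes annotated to mitochondria it was 0.30 with and 0.22 without, and among genes with a complex I term 0.38 and 0.30. None of these differences was tested.

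The 250 bases before the start are printed for 6 genes, chosen after their values were seen and so that no other annotated gene lies in the stretch. OSCP and RISP1 are shown because they lie on either side of RISP2 on chromosome 5 and both rose. QCR9 of complex III and ATPG-3 of complex V are subunits that rose and hold a pair of matches each in the stretch shown. RISP1 and SDH1-1, the catalogued subunits of complexes III and II with the largest rise, hold none. COX6B-2 of complex IV fell and holds 4 matches, the first pair overlapping, within 49 bases of its start. Sequences are from TAIR10.1, 5′ to 3′ on the strand of the gene, ending at the base before the start, with site II matches on either strand in capitals and no telo box in any of them.
OSCP (chr5:4312067-4312316, minus strand): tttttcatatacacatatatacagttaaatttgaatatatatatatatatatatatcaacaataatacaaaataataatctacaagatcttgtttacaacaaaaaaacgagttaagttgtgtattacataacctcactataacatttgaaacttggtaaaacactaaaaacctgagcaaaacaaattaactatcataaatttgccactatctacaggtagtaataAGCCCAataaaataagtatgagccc
QCR9 (chr3:19544366-19544615, minus strand): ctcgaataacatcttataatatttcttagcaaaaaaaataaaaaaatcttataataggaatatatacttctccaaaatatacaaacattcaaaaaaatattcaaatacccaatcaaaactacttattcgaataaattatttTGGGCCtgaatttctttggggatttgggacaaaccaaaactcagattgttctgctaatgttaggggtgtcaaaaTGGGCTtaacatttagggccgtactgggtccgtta
ATPG-3 (chr4:13281633-13281882, plus strand): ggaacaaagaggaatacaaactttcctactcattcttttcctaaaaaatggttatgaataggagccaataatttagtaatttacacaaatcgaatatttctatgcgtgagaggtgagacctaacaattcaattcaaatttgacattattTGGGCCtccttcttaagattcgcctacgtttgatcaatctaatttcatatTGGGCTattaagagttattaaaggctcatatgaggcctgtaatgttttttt
RISP1 (chr5:4307571-4307820, minus strand): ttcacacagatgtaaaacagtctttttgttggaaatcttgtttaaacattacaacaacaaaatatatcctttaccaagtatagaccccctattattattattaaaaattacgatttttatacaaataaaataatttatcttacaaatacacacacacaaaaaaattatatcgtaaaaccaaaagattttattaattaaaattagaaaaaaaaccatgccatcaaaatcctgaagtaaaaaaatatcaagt
SDH1-1 (chr5:26653357-26653606, plus strand): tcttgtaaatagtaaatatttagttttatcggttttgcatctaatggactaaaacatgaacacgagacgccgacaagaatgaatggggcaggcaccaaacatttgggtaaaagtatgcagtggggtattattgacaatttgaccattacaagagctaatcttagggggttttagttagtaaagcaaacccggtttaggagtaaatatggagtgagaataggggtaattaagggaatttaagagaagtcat
COX6B-2 (chr5:23426397-23426646, plus strand): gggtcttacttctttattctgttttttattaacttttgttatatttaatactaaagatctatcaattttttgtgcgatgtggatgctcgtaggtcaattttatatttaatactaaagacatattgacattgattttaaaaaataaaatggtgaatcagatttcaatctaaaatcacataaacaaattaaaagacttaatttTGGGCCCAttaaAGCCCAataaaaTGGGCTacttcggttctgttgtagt
In QCR9 the matches begin 109 and 35 bases before the start, and in ATPG-3 101 and 51 bases before it. The stretch of OSCP holds 1 match, 25 bases before the start, and its other 2 lie in the window beyond. A match to these letters is a description of the sequence and not a bound site.

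Complex II had the lowest median of the 3 complexes with many members. Of its 11 tested genes 10 rose, none fell and 1 was not called, with log2 fold changes of 0.10 to 0.88. SDH1-1 (AT5G66760), the main gene for the flavoprotein that oxidises succinate, had 76.34, 77.70 and 78.70 FPKM in lon1-1, against 41.58, 42.12 and 41.27 FPKM in wt. The groups lay well apart, with a log2 fold change of 0.88 (SE 0.030, limma adjusted p = 4.01e-09), and it was the only gene of the complex that passed treat. Its paralog SDH1-2 also rose, by 0.60, at a far lower level of 1.91 ± 0.23 FPKM in lon1-1 and 0.91 ± 0.09 FPKM in wt. The ratio of those means is 2.10, a change that the added 1 shrinks on the tested scale.

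The other subunits of complex II rose less than SDH1-1. SDH2-1, for the iron-sulfur subunit that takes electrons from the flavoprotein, had 41.58, 39.44 and 39.92 FPKM in lon1-1 and 29.28, 28.58 and 28.42 FPKM in wt, a rise of 0.47. SDH4, a membrane anchor, had 64.90, 68.85 and 61.35 FPKM in lon1-1 and 45.30, 42.08 and 46.32 FPKM in wt, a rise of 0.53. SDH5, a plant-specific subunit, had 136.82, 136.53 and 144.05 FPKM in lon1-1 and 95.22, 95.83 and 92.58 FPKM in wt, a rise of 0.55. For none of these did the groups overlap. SDH2-2, SDH6 and SDH7-1 rose by 0.30, 0.23 and 0.35. The membrane anchor genes SDH3-1 and SDH3-2 rose by 0.27 and 0.34, but their transcripts were 99.9% identical over 1090 aligned bases, so the division of reads between them is uncertain. SDH7-2 was not called: it had 13.37, 13.75 and 16.06 FPKM in lon1-1 and 13.26, 13.20 and 13.61 FPKM in wt, groups that overlap (log2 fold change 0.10, limma adjusted p = 0.186). SDH2-3, a seed form of the iron-sulfur subunit, stayed at 0.06 to 0.12 FPKM in all libraries and was not tested.

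In complex III, 15 of 17 members rose, 1 fell and 1 was not called. RISP1 (AT5G13430), 1 of the 2 genes for the Rieske iron-sulfur protein that hands electrons to cytochrome c1, had 141.12, 140.98 and 141.51 FPKM in lon1-1, against 74.72, 74.50 and 76.52 FPKM in wt. It rose by 0.90 on the log2 scale (SE 0.028, limma adjusted p = 2.46e-09), the largest rise of a catalogued subunit in the complex. RISP2 (AT5G13440) had 112.55, 112.98 and 114.16 FPKM in lon1-1, against 99.65, 98.43 and 99.83 FPKM in wt, and rose by 0.19. The order of the pair thus turned: RISP2 gave 44.5 ± 0.14% of the summed Rieske FPKM in lon1-1 and 56.9 ± 0.27% in wt (SD, n = 3), and the libraries did not overlap. The transcripts are 89.4% identical over 1060 aligned bases. RISP1 at chr5:4305106-4307570, RISP2 at chr5:4307973-4310273 and OSCP at chr5:4310254-4312066 follow each other on the minus strand (TAIR10.1), and the annotated ranges of RISP2 and OSCP overlap.

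Paralogs of the small subunits of complex III also parted. QCR7-1 (AT4G32470), a subunit known from yeast to sit on the matrix side, had 115.10, 109.30 and 117.60 FPKM in lon1-1 and 72.28, 68.50 and 70.99 FPKM in wt, a rise of 0.68 (limma adjusted p = 1.03e-07). QCR7-2 (AT5G25450) had 2.41, 2.57 and 2.53 FPKM in lon1-1 and 3.95, 4.28 and 3.85 FPKM in wt, a fall of 0.52 (log2 fold change -0.52, limma adjusted p = 2.95e-05). The groups lay apart for both, in opposite directions, though QCR7-2 gave only a small part of the family, whose summed FPKM was 1.56 times as high in lon1-1 as in wt. For the hinge protein QCR6, which is associated with cytochrome c1, QCR6-1 had 101.27, 86.40 and 91.64 FPKM in lon1-1 and 63.25, 65.40 and 57.51 FPKM in wt and rose by 0.58. QCR6-2 had 23.97, 23.34 and 25.33 FPKM in lon1-1 and 25.75, 21.86 and 25.73 FPKM in wt and was not called (log2 fold change -0.01, limma adjusted p = 0.888).

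The core proteins of complex III in plants are also the mitochondrial processing peptidase, which cuts targeting sequences off imported proteins. MPPALPHA-1 had 132.15, 134.63 and 125.69 FPKM in lon1-1 and 82.85, 81.04 and 82.68 FPKM in wt, a rise of 0.66 with the groups apart. MPPBETA rose by 0.59, with 280 ± 2.1 FPKM in lon1-1 and 185 ± 4.3 FPKM in wt, and the less abundant MPPALPHA-2 by 0.32. The cytochrome c1 genes CYC1-1 and CYC1-2 rose by 0.42 and 0.24, and the small subunits QCR8-1, QCR8-2, QCR9 and QCR10 by 0.41 to 0.65. AT2G07727, a chromosome 2 copy of the cytochrome b gene, had 535.70, 596.55 and 515.91 FPKM in lon1-1 and 276.11, 289.51 and 306.49 FPKM in wt and rose by 0.91, but its reads may come from the mitochondrial gene.

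**Figure D2:**
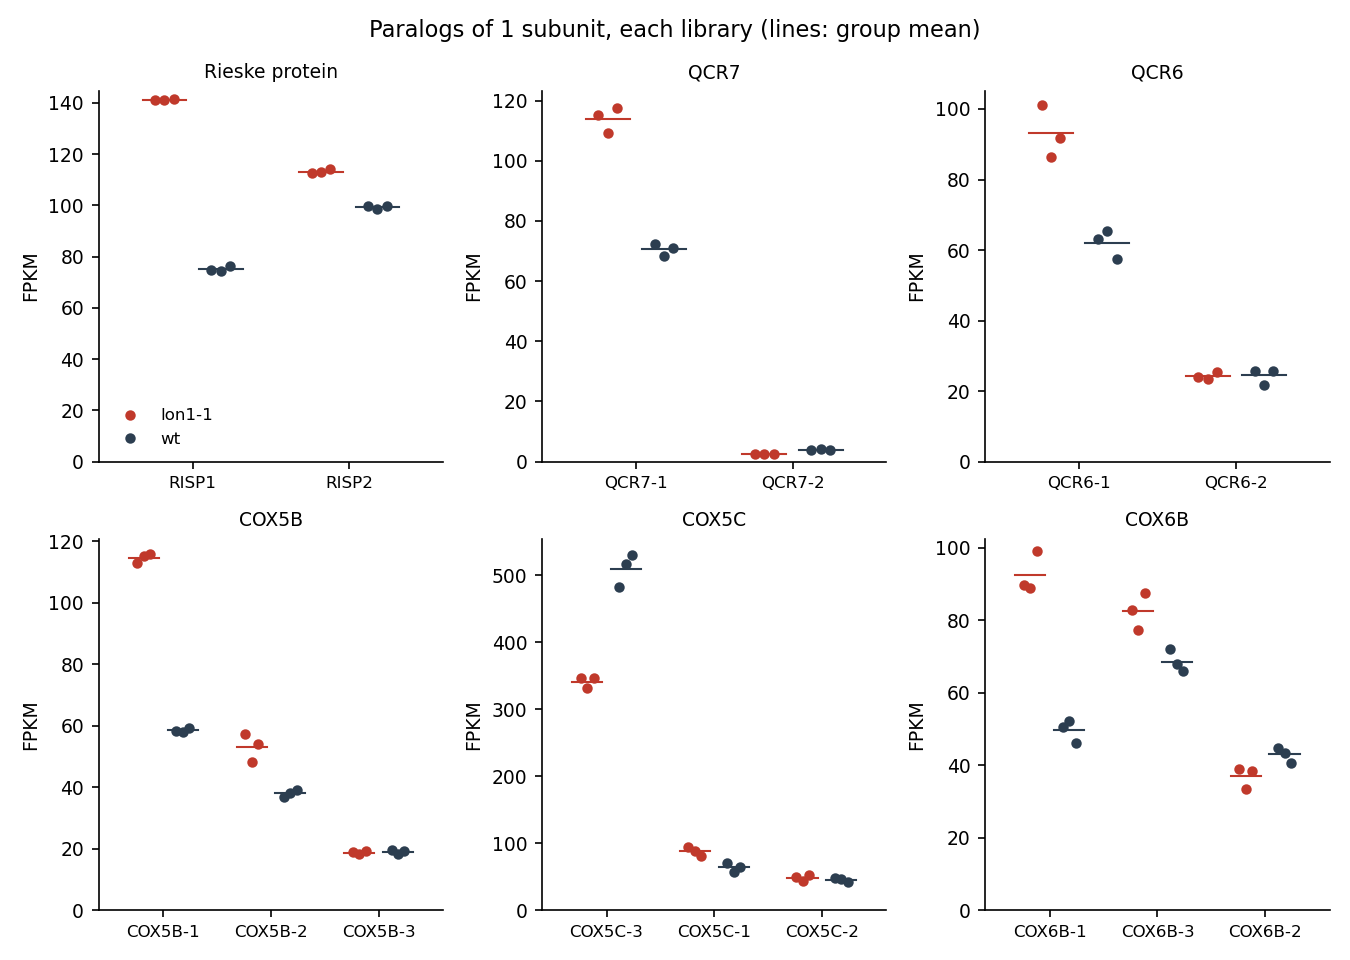
FPKM of paralogs for 6 subunits of complexes III and IV, with a point for each of 3 lon1-1 (left of each pair) and 3 wt libraries and a line at the group mean. RISP1, QCR7-1, QCR6-1, COX5B-1 and COX6B-1 lie higher in lon1-1, while COX5C-3, the most abundant gene shown, lies lower, at 331.67 to 346.47 FPKM in lon1-1 and 483.13 to 530.01 FPKM in wt.

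For complex IV the annotation terms found COX6A (AT4G37830) alone. It had 415.40, 395.27 and 481.12 FPKM in lon1-1, against 327.41, 343.27 and 325.90 FPKM in wt, and rose by 0.37 (SE 0.064, limma adjusted p = 0.000452) with the groups apart. The catalogue holds 15 nuclear genes of the complex, of which 14 were tested. Of these 9 rose (64.3%, beside 44.7% of all tested genes), 2 fell and 3 were not called, with a median log2 fold change of 0.32. That was the lowest share of risers among the 4 complexes. Over the whole catalogue, members or not, 11 of 12, 13 of 15 and 15 of 16 tested genes rose in complexes II, III and V. The difference between complexes was not tested.

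Within complex IV the paralogs of a subunit moved in different ways. For COX5B, a zinc-binding subunit, COX5B-1 rose by 0.96 and COX5B-2 by 0.47, while COX5B-3 had 18.78, 18.13 and 19.22 FPKM in lon1-1 and 19.40, 18.22 and 19.37 FPKM in wt and was not called. COX5C-3, the most abundant nuclear gene of the complex in wt, had 346.47, 331.67 and 346.42 FPKM in lon1-1 and 483.13, 517.04 and 530.01 FPKM in wt. It fell by 0.58 on the log2 scale (log2 fold change -0.58, SE 0.041, limma adjusted p = 7.44e-07), and the groups lay apart. COX5C-1 rose by 0.45 and COX5C-2 was not called at 0.08, so the summed FPKM of the family was 464.7 to 489.7 in lon1-1 and 601.4 to 637.8 in wt, a ratio of 0.771. This was the only one of 18 paralog families whose summed FPKM was lower in lon1-1.

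COX6B, which lies on the intermembrane space side, also had members that moved apart. COX6B-1 had 89.80, 88.87 and 99.11 FPKM in lon1-1 and 50.61, 52.12 and 46.00 FPKM in wt, a rise of 0.89, and COX6B-3 rose by 0.26. COX6B-2 had 38.83, 33.47 and 38.39 FPKM in lon1-1 and 44.83, 43.45 and 40.72 FPKM in wt and fell by 0.22 (log2 fold change -0.22, limma adjusted p = 0.00677). COX6B-4 was at most 0.13 FPKM in any library. Of the less characterised plant subunits, COX-X1, COX-X2 and COX-X3 rose by 0.27 to 0.41, and COX-X4 was not called at 0.02.

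Complex V had the largest rises. All 12 catalogued members rose, by 0.32 to 1.09 with a median of 0.73, and 6 of them passed treat. Over all tested genes 44.7% rose and 8.33% passed treat as higher. The 3 genes for subunit g, a small membrane protein of Fo, all moved: ATPG-2 (AT2G19680) had 49.96, 47.51 and 47.91 FPKM in lon1-1 and 21.73, 22.55 and 22.66 FPKM in wt, a rise of 1.09 (SE 0.035, limma adjusted p = 3.42e-09). ATPG-3 had 19.11, 17.08 and 19.79 FPKM in lon1-1 and 9.94, 8.23 and 8.71 FPKM in wt, a rise of 0.98, and ATPG-1, the most abundant, rose by 0.74. The summed FPKM of subunit g was 158.8 to 170.3 in lon1-1 and 88.4 to 91.4 in wt, a ratio of 1.85.

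Subunits of the F1 head and central stalk rose by unequal amounts. ATPE, the epsilon subunit of the stalk, had 140.95, 125.88 and 139.20 FPKM in lon1-1 and 69.95, 71.71 and 68.95 FPKM in wt, a rise of 0.94 with the groups apart. ATPD, the delta subunit beside it, rose by 0.65 and ATPC, the gamma subunit that forms the shaft, by 0.42. ATPB-3, 1 of 3 genes for the catalytic beta subunit, rose by 0.42, and the pair dropped for their complex I term, ATPB-1 and ATPB-2, rose by 0.30 and 0.63. Beta transcripts are 88.1% to 93.8% identical over their aligned bases, so reads may be divided between them, and their summed FPKM was 672.2 to 704.6 in lon1-1 and 496.6 to 515.1 in wt.

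The stator of complex V holds the head still while the rotor turns. OSCP, which joins the stator to the head, had 225.83, 221.86 and 245.41 FPKM in lon1-1 and 138.40, 144.51 and 128.08 FPKM in wt, a rise of 0.75. ATPQ, subunit d of the stator, had 223.17, 215.57 and 230.93 FPKM in lon1-1 and 136.79, 132.31 and 120.08 FPKM in wt, a rise of 0.78. The groups lay apart for both. The plant-specific subunit FAd (AT2G21870, plotted as FAD) rose by 0.54, and the 6 kDa subunit genes ATP6KD-1 and ATP6KD-2 by 0.71 and 0.32. Among genes outside the members, IF1-2, for an inhibitor that keeps the enzyme from hydrolysing ATP, rose by 0.56, and IF1-1 was not called at 0.07.

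The plastid gamma subunits, which the terms swept in, went the other way. AT4G04640 had 23.05, 21.90 and 23.34 FPKM in lon1-1 and 45.37, 43.26 and 43.57 FPKM in wt, a log2 fold change of -0.92 (SE 0.038, limma adjusted p = 1.49e-08), and AT1G15700 had 6.35 ± 0.55 FPKM in lon1-1 and 8.15 ± 0.49 FPKM in wt, a log2 fold change of -0.32. The groups lay apart for both. These stood beside the lower shoot and cotyledon markers given above, whose part in the fall was not tested.

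Copies of mitochondrial DNA under complex V gave the widest span of values. AT2G07777, described in the table as subunit 9 of the ATP synthase, had 135.20, 154.01 and 130.28 FPKM in lon1-1 and 32.56, 32.84 and 33.01 FPKM in wt, a log2 fold change of 2.06 that was the largest of any member. AT2G07671, another copy of the subunit 9 gene, rose by 0.89 and AT2G07709, a transcribed pseudogene, by 0.53. AT2G07707, a copy of the mitochondrial atp8 gene, had 1133.23, 1095.92 and 1196.49 FPKM in lon1-1 and 1546.92, 1487.34 and 1584.21 FPKM in wt, a log2 fold change of -0.43. Its 6 values were identical to those of the mitochondrial atp8, so the same reads stand behind both.

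The mitochondrially encoded partners of these subunits were therefore summed over the gene models whose KEGG term in the table names that product alone, copies and added models included. AT2G07777 has no KEGG term and is not in the sum for atp9. Sums were made for 8 products, which may not be all such subunits. Of these 8, 7 had a higher sum in lon1-1 and atp8 a lower one. The groups lay apart for each, at a two-sided exact permutation p = 0.1, the smallest that 3 against 3 libraries allow. The ratio of lon1-1 to wt was 1.64 for cob, the cytochrome b of complex III. For the core subunits cox1, cox2 and cox3 of complex IV it was between 1.39 and 1.42. In complex V it was 1.75 for atp1, the F1 alpha subunit, 1.58 for atp9, whose product forms the rotor ring, and 1.08 for atp6. The atp6 sum includes a mitochondrial model and its chromosome 2 copy AT2G07741, which had identical values in every library and were both counted. That model was not called (log2 fold change -0.09), while the other mitochondrial atp6 model rose by 0.39. For atp8 the sum was 2266.46, 2191.84 and 2392.98 in lon1-1 and 3093.84, 2974.68 and 3168.42 in wt, a ratio of 0.742. Single models of a product could differ from the sum: the mitochondrial cob model had 265.22, 229.06 and 179.65 FPKM in lon1-1 and 440.15, 347.11 and 455.03 FPKM in wt, while the model the authors added for it had 1734.94, 2006.42 and 1743.60 FPKM in lon1-1 and 877.17, 862.77 and 901.44 FPKM in wt.

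**Figure D3:**
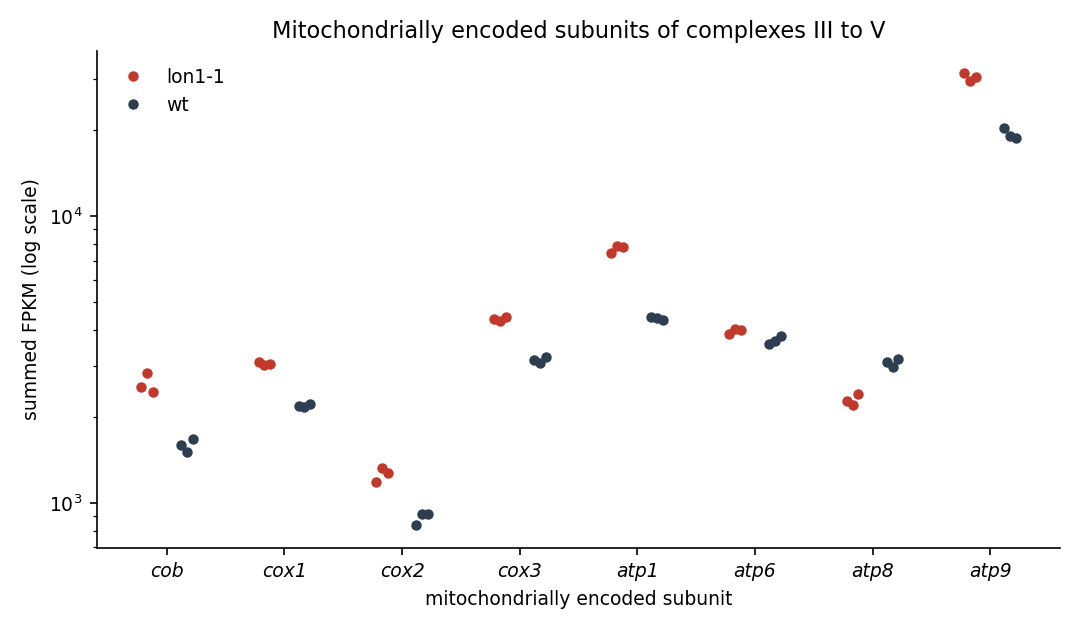
Summed FPKM (log scale) of 8 mitochondrially encoded subunits in each of 3 lon1-1 (left) and 3 wt libraries (right). The lon1-1 points lie above the wt points for all but atp8, whose ratio was 0.742, and they come close together for atp6, whose ratio was 1.08.

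The share of each paralog within its subunit compares genes inside a library, where scaling between libraries cancels. In 18 families of 2 to 4 genes, the share of the paralog with the highest wt mean lay apart between the groups in 13, lower in lon1-1 in 8 and higher in 5. Because that paralog was picked by its wt level, these counts are a description. Each of the 13 had a two-sided exact permutation p = 0.1, the smallest possible, which is 0.138 after Benjamini-Hochberg adjustment over the 18. The shift was largest for the Rieske protein, at -12.4 percentage points for RISP2. It was 10.8 points upward for COX5B-1, with 61.5 ± 1.9% of its family in lon1-1 and 50.7 ± 0.27% in wt, and -10.8 points for COX5C-3, with 71.5 ± 0.75% in lon1-1 and 82.3 ± 1.7% in wt. In complex II the shares of SDH1, SDH2, SDH3 and SDH7 overlapped between the groups, as did that of QCR8 in complex III. In 4 families the paralog with the highest mean differed: RISP1 led in lon1-1 and RISP2 in wt, COX6B-1 in lon1-1 and COX6B-3 in wt, IF1-2 in lon1-1 and IF1-1 in wt, and SDH7-1 in lon1-1 and SDH7-2 in wt, the last with overlapping shares.

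**Figure D4:**
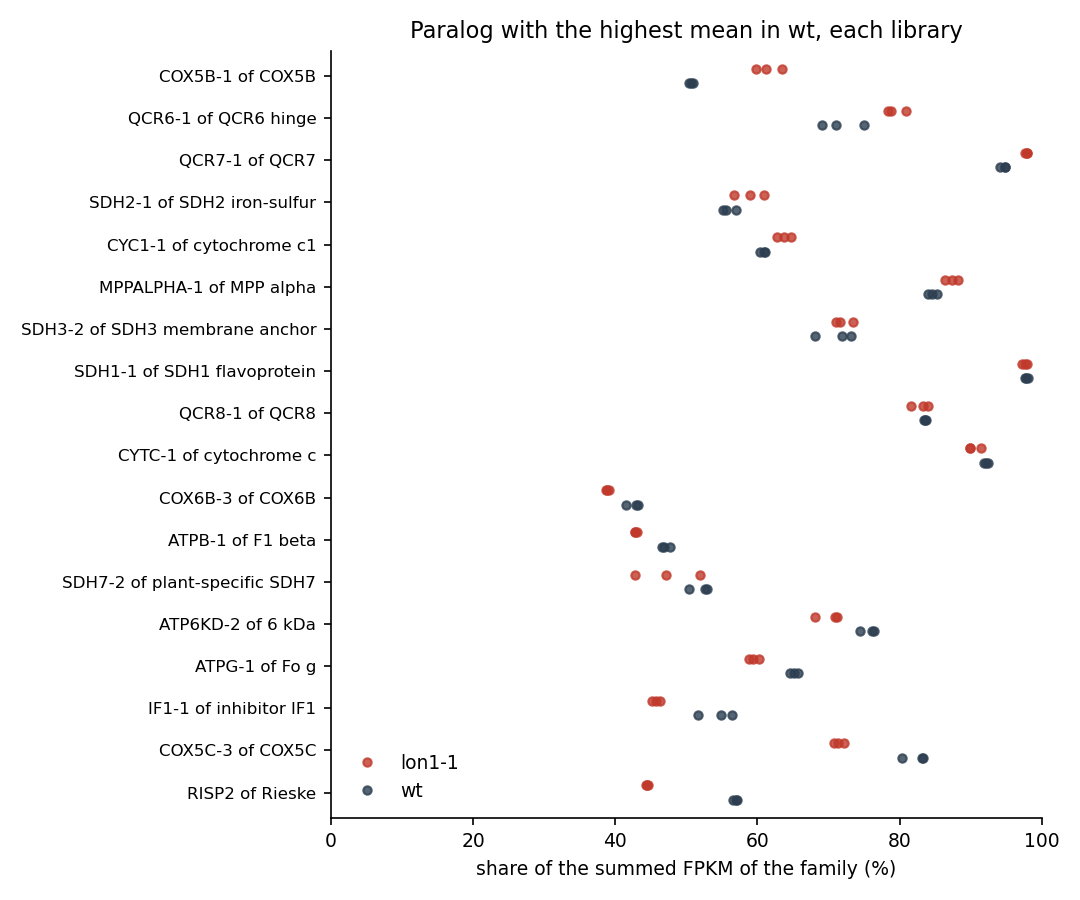
Share (%) of the summed FPKM of a subunit that came from the paralog with the highest wt mean, with a point for each of 3 lon1-1 (upper) and 3 wt libraries (lower), for 18 families ordered by the difference. COX5B-1 at the top had a share 10.8 points higher in lon1-1, and RISP2 at the bottom had a share 12.4 points lower in lon1-1.

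Genes that build the complexes rose together with the subunits. All 17 tested assembly factors rose, with a median log2 fold change of 0.68 and a range of 0.18 to 1.12, and 6 passed treat. Over all tested genes 44.7% rose and 8.33% passed treat as higher. With median-ratio scaling 16 of the 17 were called, and 1 of the 3 factors for complex II was not. HCC1, a copper chaperone for complex IV, had 9.64, 8.87 and 9.10 FPKM in lon1-1 and 4.01, 3.49 and 3.56 FPKM in wt, a rise of 1.12 (SE 0.061, limma adjusted p = 1.13e-07), and its relative HCC2 rose by 0.83. OXA1, which inserts proteins into the inner membrane, had 25.79, 25.32 and 24.39 FPKM in lon1-1 and 14.46, 13.09 and 13.47 FPKM in wt, a rise of 0.84. The groups lay apart for both. COX10 and COX15, which make the haem a of complex IV, rose by 0.49 and 0.62, and COX17-1 and COX19-1, which deliver copper in yeast, by 0.68 and 0.87.

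Factors for the other complexes moved in the same direction. CBP3, which in yeast acts on cytochrome b, rose by 0.85. ATP12 and ATP11, which in yeast chaperone the alpha and beta subunits of F1, rose by 0.88 and 0.74. For complex II, SDHAF2, which attaches the flavin to SDH1, rose by 0.83, SDHAF1 by 0.61 and SDHAF4 by 0.18, the smallest rise of the list. Cytochrome c, the carrier between complexes III and IV, rose in both genes, with CYTC-1 at 237 ± 7.0 FPKM in lon1-1 and 141 ± 2.9 FPKM in wt (log2 fold change 0.74) and CYTC-2 at 25.2 ± 2.5 FPKM in lon1-1 and 12.1 ± 0.53 FPKM in wt (log2 fold change 0.99).

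**Figure D5:**
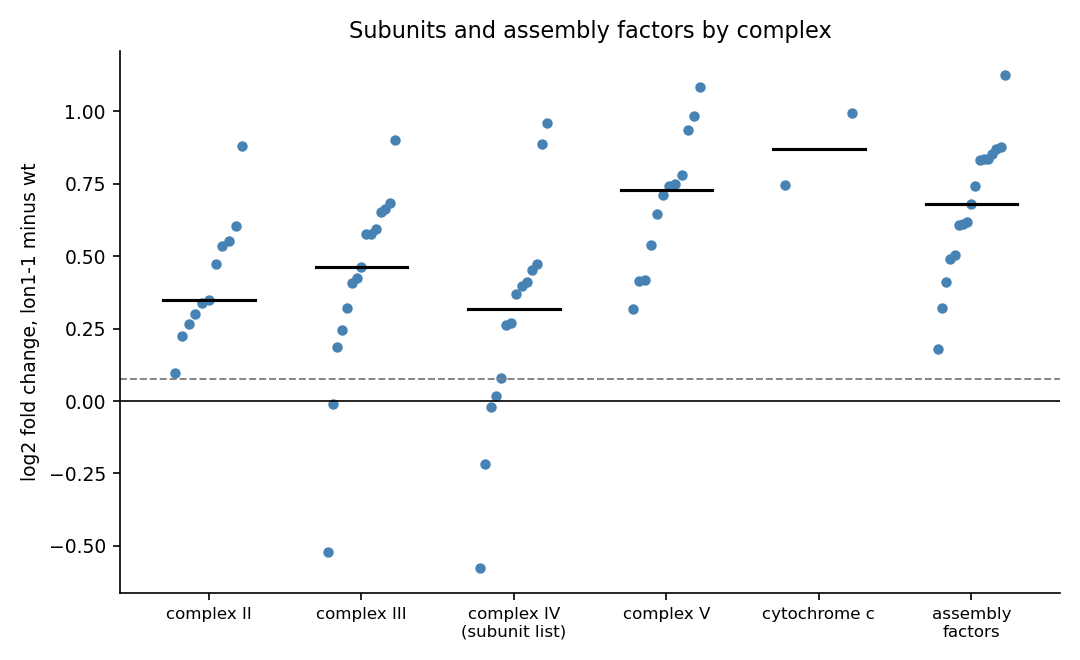
Log2 fold change (lon1-1 minus wt) of catalogued members of complexes II, III and V, of the 14 tested genes in the complex IV subunit list, of the 2 cytochrome c genes and of 17 assembly factors, with a bar at each median and a dashed line at the median of all tested genes, 0.08. The medians are 0.35, 0.46, 0.32, 0.73, 0.87 and 0.68, and complexes III and IV have genes below 0.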

How the data were processed

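The authors deposited 1 table of FPKM per gene and library, written to 2 decimals. The submitters' processing notes name HISAT2, Bowtie2, RSEM and TAIR10, without versions or roles. Per the labels' protocols, ribosomal RNA was removed from total RNA, DNA was digested and libraries were stranded. All 24152 gene IDs and all 44279 transcript accessions of the table were found in the RefSeq TAIR10.1 annotation, which gave symbols and coordinates. Another 41 gene models were added by the authors.

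Counts were not used here. Depth was estimated by taking 180 bases off each transcript length and bringing low FPKM of short transcripts near whole fragments, with 95.4% to 98.2% within 0.15, which is no independent check. Genes that reached 1 FPKM in 3 or more libraries entered the test on log2(FPKM + 1) with limma 3.58.1 in R 4.3.3 (empirical Bayes with a mean-variance trend, genotype as the only term), and p was adjusted by Benjamini-Hochberg over all 18308, with a threshold of 0.05. The fit was also run on simulated data in which far fewer genes changed than were called here. That run is no check of these calls. Copies of mitochondrial DNA were found with blastn of BLAST+ 2.17.0, at 90% identity over 50% of the gene. Alternatives changed the pseudocount, filter, scaling, spread model, threshold, block, libraries and membership.

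The members, the subunit catalogue and the other lists were chosen with earlier results of these data known. In each complex the rule for named genes took the 4 largest rises and 2 largest falls among called members with a mean of at least 5 FPKM, members not called or against the trend, members of families that parted by over 0.5, LON1 and the mitochondrially encoded subunits. Genes named beyond it were chosen after their values were seen.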

Additional observations from a re-analysis of the deposited data

How the results depend on the processing

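The 42 members higher and 4 lower were called in the same direction with a pseudocount of 0.1, with no filter, with both other scalings, without the trend, and without each library in turn (42 to 42 and 4 to 4). A stricter filter, a mean of at least 5 FPKM, tested 40 and 3 of them, all called alike. Against a 1.5-fold change, 11 members and 1525 of all genes were higher and 1 member and 1408 of all genes were lower, a stricter question by construction. Without copies of mitochondrial DNA and plastid subunits, chosen after seeing the data, 1 member was lower, and with the subunit catalogue 48 genes were higher and 3 lower. Over all genes, leaving out a library gave 7783 to 8036 higher and 5607 to 5747 lower. Median-ratio scaling moved the median of all tested genes to 0, beside 0.08, called 7003 of all genes higher and 6994 lower, beside 8182 and 5922, left 16 of 17 assembly factors called, and gave medians of 0.26, 0.37 and 0.56 for complexes II, III and V. The replicate letters showed no clear pairing of the libraries: deviations of libraries with the same letter correlated at 0.06, 0.02 and -0.03. Those with different letters correlated at -0.065 to 0.047. Such values cannot show whether libraries of the same letter were handled together. With the letter as a replicate block, 42 members were higher and 4 lower, and 8145 and 5901 of all genes. No result reversed. Of the named genes, 17 lost their call against a 1.5-fold change. COX5C-2 passed without lon1-1 B (log2 fold change 0.14, limma adjusted p = 0.036), and COX5B-3 passed as lower with median-ratio scaling (-0.11, limma adjusted p = 0.036). With 3 libraries a group, an exact permutation test cannot fall below p = 0.1. Genes under 5 FPKM, such as QCR7-2, rest on fewer fragments.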

Other observations

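The Rieske family summed to 253.7 to 255.7 FPKM in lon1-1 and 172.9 to 176.4 FPKM in wt, and within that sum the order of RISP1 and RISP2 turned. The lower COX5C-3 stood beside higher sums of all 3 mitochondrially encoded subunits of complex IV. It also stood beside 11 of 11 tested assembly factors of the complex that rose, where 44.7% of all tested genes rose. Their median log2 fold change was 0.62. In the promoters of the complex IV list, 7 of 15 held a site II match. Those of COX5B-1 and COX6B-1, its largest risers, held none, and neither did that of COX5C-3, its largest faller. The promoter of QCR7-2, the only catalogued member that fell, held none either.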
